A study of Homo sapiens with 9 samples.

Results

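The genes ETV1, ETV4, ETV5, DUSP4, DUSP5, DUSP6, SPRY2, SPRY4, SPRED1 and PHLDA1 are direct outputs of the RAS-ERK pathway, and their RNA was followed in the hepatocellular carcinoma (HCC) cell line MHCC97L and in its drug-resistant derivatives. These 10 genes, of 20030 in the count table, were chosen by name as known ERK outputs, with results from these libraries already known. Their differences between the lines are therefore given as a description, without a p-value. The groups were untreated MHCC97L, MHCC97L-Src, which was kept under saracatinib until it grew stably at 4 μmol/L, and MHCC97L-Oxa, which was kept under oxaliplatin until it grew stably at 2 μmol/L, with 3 libraries per line. Saracatinib inhibits Src family kinases, and oxaliplatin is a platinum drug that damages DNA. MHCC97L is the parent of both, and each drug is represented by 1 derived line whose clonality is not stated, so the drug, its selection and a chance property of the derivative cannot be told apart. The comparisons addressed which transcripts accompany acquired resistance, and both comparisons with MHCC97L used the same 3 MHCC97L libraries.

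Growth factor receptors activate RAS, which signals through the RAF and MEK kinases to ERK, and active ERK enters the nucleus and induces a small set of early target genes. Some of these encode ETS transcription factors that carry the signal on, such as ETV4 and ETV5. Others encode brakes on the same pathway, namely the DUSP phosphatases, which remove phosphate from ERK or related kinases, and the Sprouty and SPRED proteins, which restrain signalling at the level of RAS and RAF. Because transcription of these genes follows ERK activity, their RNA is widely read as a measure of pathway output in tumors, including liver cancer. RNA levels do not measure phosphorylated ERK, which was not analysed here.

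The libraries held 16970486 to 18209213 reads assigned to genes, so that 3 counts, taken as the floor of detection, equalled 0.165 to 0.177 CPM (read counts scaled to a common library size of 1000000). MHCC97L replicate 1 stood apart from the other libraries: the first principal component, with 64.1% of the variance, placed it at -138, against -48.3 to 61 in the other 8. Its deviation from the mean of all libraries fell with the GC content of the gene (Spearman rho = -0.786 across 12126 genes, which are not independent), whereas the other 8 libraries lay between -0.256 and 0.703. Values are therefore also given after a correction for GC content and gene length, and without this library. Of 11 hepatocyte markers, MHCC97L had 10 at or under the floor, MHCC97L-Src had 7 and MHCC97L-Oxa had 9, and ALB, APOB, TTR and AFP were among them in each line, so the defining markers of hepatocytes were absent or nearly so in all 3 lines. Of 4 leukocyte markers PTPRC and CD3E were at or under the floor in the 3 lines, and CD68 and CD14 carried the sum of 49.7 to 80.5 CPM in MHCC97L libraries, 77.5 to 95.5 CPM in MHCC97L-Src libraries and 148 to 151 CPM in MHCC97L-Oxa libraries. CD14, a monocyte marker, was the smaller part of that sum and rose in both resistant lines. It had 0.906, 1.01 and 1.11 CPM in MHCC97L, 5.60, 6.13 and 5.69 CPM in MHCC97L-Src, and 4.997, 4.41 and 4.896 CPM in MHCC97L-Oxa. Its log2 fold changes were 2.58 ± 0.434 (SE; adjusted p = 0.0236, edgeR with Benjamini-Hochberg adjustment) and 2.24 ± 0.385 (adjusted p = 0.0428). Of 3 endothelial markers KDR was at or under the floor throughout, and the endothelial markers summed to at most 2.22 CPM in a library. Fibroblast markers summed to 107 to 202 CPM in the MHCC97L libraries, to 70.4 to 89.7 CPM in those of MHCC97L-Src and to 137 to 154 CPM in those of MHCC97L-Oxa, and the part of these markers in the results was not tested.

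In all, 8 of the 9 genes with enough counts were expressed above every MHCC97L library in all libraries of both resistant lines. ETV4, ETV5, DUSP4, DUSP5, DUSP6, SPRY4 and PHLDA1 had fitted fold changes of 2.81 to 14.4 in MHCC97L-Src and 2.52 to 10.6 in MHCC97L-Oxa, and SPRY2 of 1.85 and 1.64. The exception was SPRED1, whose libraries overlapped. Taken line by line, the count wholly above was also 8 of the 9 in each. Over all genes tested, the libraries of MHCC97L-Src lay wholly above those of MHCC97L for 18.3% and wholly below for 12.2%. The libraries of MHCC97L-Oxa lay wholly above for 19.1% and wholly below for 10.5%. The share of all genes wholly above in both lines at once was not counted. The median log2 fold change of the 9 genes was 2.17 in MHCC97L-Src and 1.61 in MHCC97L-Oxa, beside -0.16 and -0.19 over all genes tested.

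**Figure D1:**
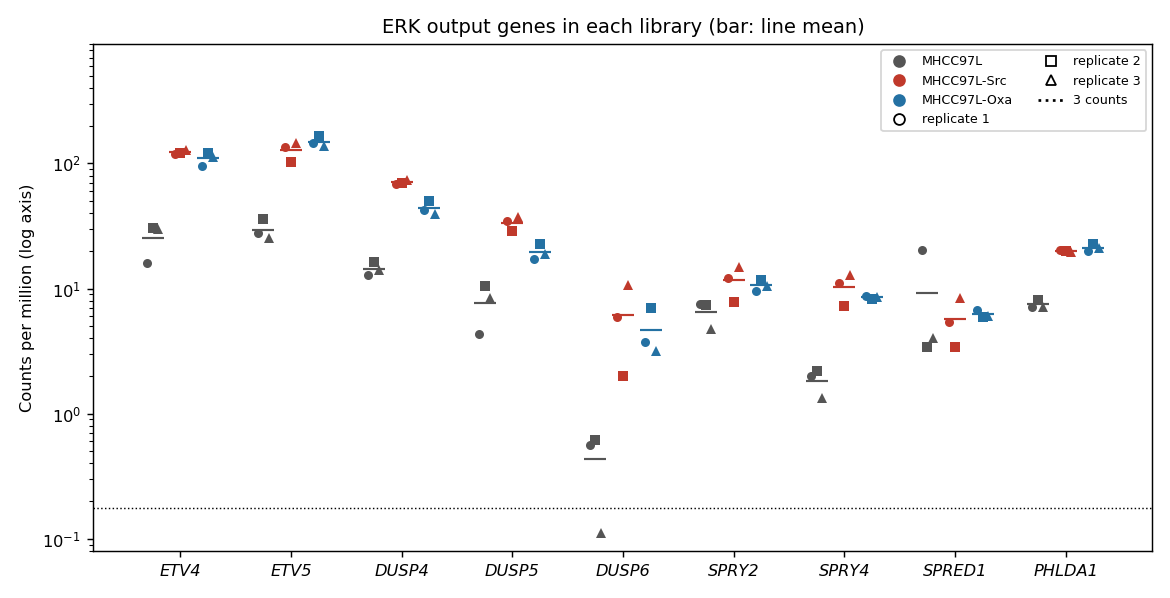
CPM values, on a log axis, of the 9 ERK output genes that could be tested, with a symbol for each of the 3 libraries of MHCC97L (grey), MHCC97L-Src (red) and MHCC97L-Oxa (blue), the line mean as a bar and 3 counts as a dotted line. Red and blue symbols lie above the grey ones for every gene but SPRED1, where MHCC97L replicate 1 (20.2 CPM) is the highest of all.

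The ETS factors ETV4 and ETV5 drew the most reads of the 10 genes. ETV4 (chr17:43527844-43579620, minus strand, GRCh38), a PEA3-type ETS factor linked to invasion in several tumors, had 15.9, 30.6 and 29.7 CPM in MHCC97L, 119.5, 122 and 128 CPM in MHCC97L-Src, and 95.6, 122 and 112 CPM in MHCC97L-Oxa. The lowest resistant library was far above the highest MHCC97L library, and MHCC97L replicate 1 was the lowest of the 9. The log2 fold change was 2.33 ± 0.331 (SE, n = 3 per line) in MHCC97L-Src and 2.10 ± 0.324 in MHCC97L-Oxa. With the correction for GC content and length these were 1.94 and 1.84. ETV5 (chr3:186046308-186110318, minus strand), its close relative, had 27.5, 35.7 and 25.4 CPM in MHCC97L, 135, 102 and 146 CPM in MHCC97L-Src, and 145, 165 and 138 CPM in MHCC97L-Oxa. Every resistant library was again far above every MHCC97L library, with log2 fold changes of 2.17 ± 0.265 and 2.34 ± 0.236. ETV1 (chr7:13891228-13991425, minus strand), the third factor of this family, was at or under the floor, with at most 2 counts in any library and sums of 2, 4 and 1 counts over the libraries of MHCC97L, MHCC97L-Src and MHCC97L-Oxa, so no fold change was computed.

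Among the phosphatases, DUSP6 had the largest ratio and the widest spread. DUSP6 (chr12:89347232-89353271, minus strand), a cytoplasmic phosphatase selective for ERK, was near the floor in MHCC97L, with 10, 11 and 2 counts (0.566, 0.620 and 0.111 CPM). It reached 103, 34 and 186 counts in MHCC97L-Src (5.94, 2.00 and 10.6 CPM) and 68, 125 and 56 counts in MHCC97L-Oxa (3.73, 6.98 and 3.15 CPM). The lowest resistant library, MHCC97L-Src replicate 2, was still above every MHCC97L library, but the log2 fold changes of 3.85 ± 0.787 and 3.41 ± 0.654 rested on few MHCC97L reads. DUSP4 (chr8:29333064-29350668, minus strand), a nuclear phosphatase of ERK and related kinases, had 12.7, 16.2 and 14.1 CPM in MHCC97L, 68.7, 70.1 and 73.7 CPM in MHCC97L-Src, and 42.2, 49.8 and 39.3 CPM in MHCC97L-Oxa. Its 3 lines formed 3 groups without overlap, with log2 fold changes of 2.36 ± 0.279 and 1.61 ± 0.277. DUSP5 (chr10:110497838-110511544, plus strand), a nuclear phosphatase selective for ERK, followed the same order, with 4.36, 10.4 and 8.40 CPM in MHCC97L, 34.5, 28.6 and 37.0 CPM in MHCC97L-Src, and 17.4, 22.7 and 18.9 CPM in MHCC97L-Oxa. Its log2 fold changes were 2.15 ± 0.429 and 1.33 ± 0.427, and without MHCC97L replicate 1, its lowest library, 1.87 and 1.11.

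**Figure D2:**
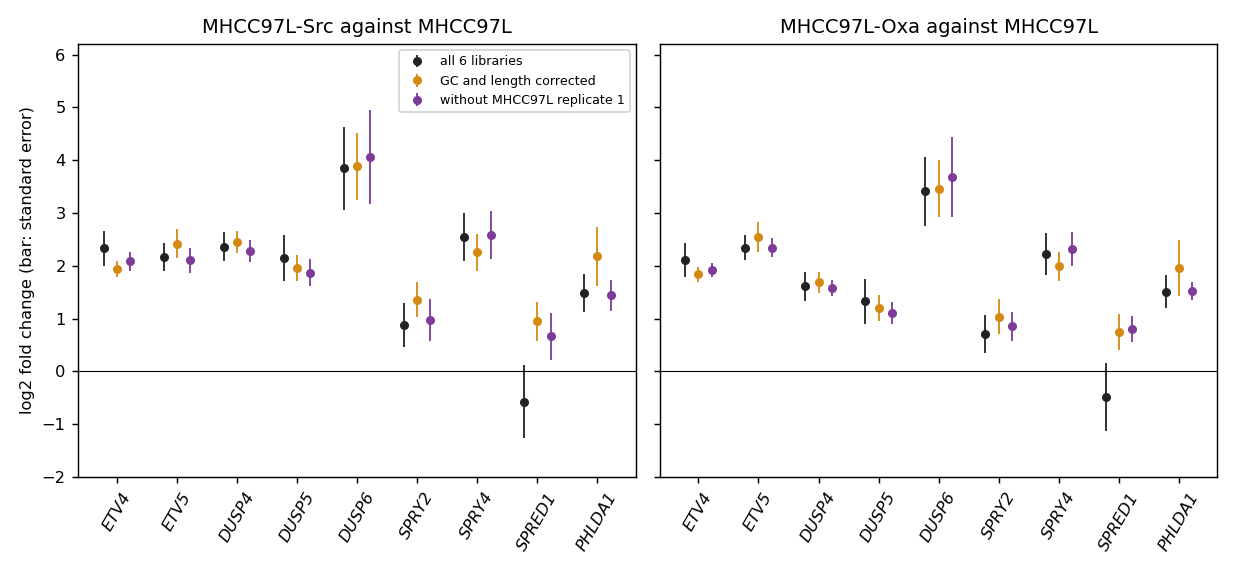
Log2 fold change against MHCC97L of each ERK output gene in MHCC97L-Src (left) and MHCC97L-Oxa (right), with its standard error as a bar, from all 6 libraries (black), after correction for GC content and gene length (orange), and without MHCC97L replicate 1 (purple). Each value is above 0 under the 3 settings except that of SPRED1, which moves from -0.57 to 0.95 and 0.67 in MHCC97L-Src and from -0.48 to 0.75 and 0.80 in MHCC97L-Oxa.

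The Sprouty and SPRED inhibitors differed among themselves. SPRY4 (chr5:142310427-142326455, minus strand), a Sprouty protein induced by receptor tyrosine kinase signalling, had 1.98, 2.197 and 1.34 CPM in MHCC97L, 11.02, 7.19 and 12.9 CPM in MHCC97L-Src, and 8.73, 8.26 and 8.55 CPM in MHCC97L-Oxa. These values lay well apart, with log2 fold changes of 2.55 ± 0.454 and 2.22 ± 0.393. SPRY2 (chr13:80335976-80340951, minus strand), the best studied inhibitor of the family, had 7.48, 7.32 and 4.78 CPM in MHCC97L, 12.2, 7.78 and 14.8 CPM in MHCC97L-Src, and 9.61, 11.7 and 10.5 CPM in MHCC97L-Oxa. The groups did not overlap, but the gap between MHCC97L-Src replicate 2 and MHCC97L replicate 1 was small, and the log2 fold changes were 0.88 ± 0.416 and 0.71 ± 0.358. SPRED1 (chr15:38252326-38357249, plus strand), which recruits the RAS inhibitor neurofibromin, had 20.2, 3.44 and 4.01 CPM in MHCC97L, 5.37, 3.42 and 8.47 CPM in MHCC97L-Src, and 6.70, 5.97 and 6.08 CPM in MHCC97L-Oxa. The high value was that of MHCC97L replicate 1, and the transcripts of SPRED1 have a GC content of 38.9%, beside a median of 50.2% over all genes tested. Its log2 fold changes of -0.57 ± 0.691 and -0.48 ± 0.651 turned to 0.67 and 0.80 without that library, so no direction is given. PHLDA1 (chr12:76025447-76033932, minus strand), a pleckstrin homology-like protein whose transcription follows ERK activity, had 7.08, 8.17 and 7.12 CPM in MHCC97L, 20.1, 20.1 and 19.6 CPM in MHCC97L-Src, and 19.9, 22.5 and 21.0 CPM in MHCC97L-Oxa. Before correction its libraries lay close together within each line and well apart from MHCC97L, with log2 fold changes of 1.49 ± 0.356 and 1.51 ± 0.313. The correction for GC content (43% in this gene) and length moved these to 2.18 ± 0.559 and 1.95 ± 0.528. It also spread the MHCC97L libraries, from a log2 deviation of -1.24 from the line mean (replicate 1) to 1.08 (replicate 2).

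The promoters of 6 of the 10 genes were matched in RefSeq (GRCh38.p14), and those of 3 genes that were high in both resistant lines are shown because ETV4 and ETV5 belong to the ETS factors, which bind around a GGAA core. Each sequence is the strand of the gene, 250 bases ending at the base before the start of 1 RefSeq entry, of 13 entries for the 6 genes. Capitals mark the 6-letter string CGGAAG, called the ETS core here, or its reverse complement CTTCCG. Other GGAA or TTCC letters are left unmarked. The windows are chr12:89352502-89352751 for DUSP6, chr12:76031777-76032026 for PHLDA1 and chr5:142324248-142324497 for SPRY4, all on the minus strand. They lie inside the gene coordinates given above, which come from GENCODE, another annotation.
DUSP6: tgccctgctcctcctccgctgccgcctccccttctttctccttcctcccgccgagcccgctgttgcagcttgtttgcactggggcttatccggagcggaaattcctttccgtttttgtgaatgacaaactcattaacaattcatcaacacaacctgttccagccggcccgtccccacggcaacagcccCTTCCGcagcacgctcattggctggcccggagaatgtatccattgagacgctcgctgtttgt
PHLDA1: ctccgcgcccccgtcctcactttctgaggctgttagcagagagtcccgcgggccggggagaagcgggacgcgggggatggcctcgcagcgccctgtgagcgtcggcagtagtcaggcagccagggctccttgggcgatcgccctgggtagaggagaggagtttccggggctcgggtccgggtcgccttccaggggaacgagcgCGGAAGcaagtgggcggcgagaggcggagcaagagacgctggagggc
SPRY4: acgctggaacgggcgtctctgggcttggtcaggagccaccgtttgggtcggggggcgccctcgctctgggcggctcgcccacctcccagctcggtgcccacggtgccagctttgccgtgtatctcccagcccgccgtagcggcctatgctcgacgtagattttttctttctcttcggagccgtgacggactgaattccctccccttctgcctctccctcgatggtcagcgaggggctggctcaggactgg
The core began 62 bases before the RefSeq start used for DUSP6 and 47 bases before that for PHLDA1, and the string CGGAAG or its reverse complement was not in the window of SPRY4. Both strands were searched in 35116 windows of 300 bases (250 before the start and 50 after). The ETS core was found in 19.5% of all windows. Of the 6 genes, which had 13 windows, 2 had it in at least 1 window, DUSP6 and PHLDA1. The shares here count windows and the members count genes, so they cannot be set against each other. The octamers TGAATGAA and TGAATGGA, bound by Capicua (CIC), the repressor of ETV1, ETV4 and ETV5 that ERK releases, were found in 1.65% and 1.03% of all windows and, of the 6 genes, only the second of them and only in ETV1. The promoters of ETV4, ETV5, DUSP4 and DUSP5 were not matched, so no motif was searched in them. The AP-1 site TGACTCA, bound by FOS and JUN proteins, was found in 4.95% of all windows and in none of the 6 genes. The octamers differ in a single letter and cannot match at the same place as the ETS core. A match here is a string of letters, not a bound site.

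In the count of genes past the threshold, edgeR's quasi-likelihood test with Benjamini-Hochberg adjustment over all genes placed 6 of the 9 genes under 0.05 in MHCC97L-Src (ETV4, ETV5, DUSP4, DUSP5, DUSP6 and SPRY4) and 4 of 9 in MHCC97L-Oxa (ETV4, ETV5, DUSP4 and SPRY4), all of them higher than in MHCC97L. Over all genes the share past the threshold was 2.13% in MHCC97L-Src, with 1.43% past and higher, and 0.953% in MHCC97L-Oxa, with 0.771% past and higher. Since the genes were selected on these libraries, nothing is read from the difference between these shares. The counts moved with single libraries: in MHCC97L-Src the count was 7 without MHCC97L replicate 1 or 2, 3 without MHCC97L-Src replicate 1, 2 without MHCC97L-Src replicate 2, and 0 without MHCC97L replicate 3 or MHCC97L-Src replicate 3 (7 at an unadjusted p under 0.05 in both). In MHCC97L-Oxa the count was 7 without MHCC97L replicate 1 or 2 and 0 without any other library (6 or 7 at an unadjusted p under 0.05). The numbers over all genes moved with the same libraries. In MHCC97L-Src they were 672 of 12171 and 3419 of 12288 without MHCC97L replicate 1 or 2. Without MHCC97L-Src replicate 1, 2 or 3 they were 69, 47 and 27, and without MHCC97L replicate 3 the number was 22. In MHCC97L-Oxa 2251 of 12168 and 2705 of 12256 passed without MHCC97L replicate 1 or 2, and 2 without any other library. DESeq2 placed 7 of the 9 genes under the threshold in MHCC97L-Oxa, where it called 893 of all 12064 genes tested. The fold changes moved less: over 14 alternatives the log2 fold change of ETV4 ran from 1.84 to 2.57 for MHCC97L-Src and from 1.75 to 2.38 for MHCC97L-Oxa, that of DUSP4 between 2.28 and 2.56 and between 1.51 and 1.83, and that of DUSP6 between 3.28 and 4.32 and between 2.97 and 3.90.

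For 2 of the 9 genes the libraries of the resistant lines did not overlap each other. DUSP4 (70.8 ± 2.57 against 43.8 ± 5.39 CPM, mean ± SD, n = 3) and DUSP5 (33.4 ± 4.31 against 19.6 ± 2.72 CPM) were higher in MHCC97L-Src, by 0.75 ± 0.131 and 0.81 ± 0.157 on the log2 scale (SE), and every MHCC97L-Src library lay above every MHCC97L-Oxa library. The libraries of the other 7 genes overlapped, with log2 differences of 0.22 ± 0.120 for ETV4, -0.18 ± 0.126 for ETV5, 0.45 ± 0.482 for DUSP6, 0.17 ± 0.224 for SPRY2, 0.33 ± 0.218 for SPRY4, -0.08 ± 0.288 for SPRED1 and -0.03 ± 0.152 for PHLDA1. In edgeR's quasi-likelihood test DUSP4 and DUSP5 were on the called side of the threshold, beside 4.64% of all genes, with 2.12% called and higher in MHCC97L-Src. Nothing is read from this, since the genes were selected on these libraries. The libraries of MHCC97L-Src lay wholly above those of MHCC97L-Oxa for 13.2% of all genes and wholly below for 14.4%. The count of 2 fell to 1 without MHCC97L-Oxa replicate 2 (DUSP4) and to 0 without MHCC97L-Oxa replicate 1 or 3 or MHCC97L-Src replicate 1, where 2 genes had an unadjusted p under 0.05. It was also 0 with all 9 libraries in 1 fit (2 at an unadjusted p under 0.05). Over all genes tested, 243, 167 and 231 passed without MHCC97L-Oxa replicate 1, 2 or 3, and 208 without MHCC97L-Src replicate 1. With all 9 libraries 86 of 12232 passed. Over 13 alternatives, the log2 difference of DUSP4 stayed between 0.68 and 0.84 and that of DUSP5 between 0.74 and 0.91, whereas that of DUSP6 ran from -0.14 to 0.85.

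**Figure D3:**
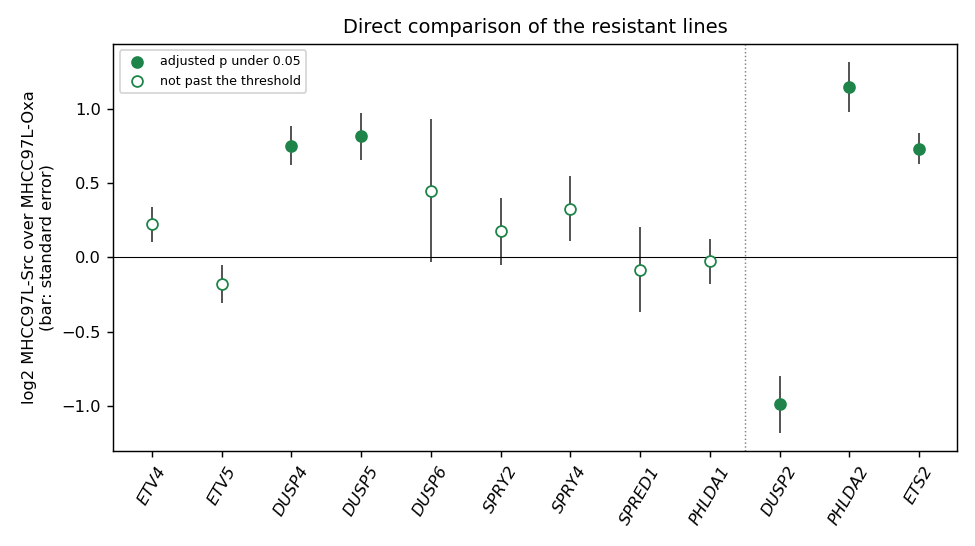
Log2 difference of MHCC97L-Src over MHCC97L-Oxa, with its standard error as a bar, for the 9 ERK output genes and, right of the dotted line, for the 3 other ERK pathway genes past the threshold. Filled symbols had an adjusted p under 0.05, and among the 9 genes only DUSP4 (0.75) and DUSP5 (0.81) are filled.

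Per transcript length the order of the genes was similar in the 3 lines. In the deposited FPKM values, which are scaled to length and library size, MHCC97L had ETV5 (5.54 ± 1.14), ETV4 (5.17 ± 1.62) and DUSP5 (3.36 ± 1.32) on top, and the libraries of these neighbours overlapped. SPRY4 (0.223 ± 0.0638) and DUSP6 (0.137 ± 0.0881) were the lowest above ETV1 and overlapped too. In MHCC97L-Src the order was ETV4 (25.6 ± 1.35), ETV5 (23.97 ± 4.41), DUSP5 (14.3 ± 2.01) and DUSP4 (6.54 ± 0.27), where ETV4 and ETV5 overlapped and the others were separate. In MHCC97L-Oxa ETV5 (28.5 ± 2.73), ETV4 (23.2 ± 2.68) and DUSP5 (8.55 ± 1.19) were separate from each other. DUSP6, the gene with the largest ratio, remained a low transcript in both resistant lines, with 1.92 ± 1.40 and 1.44 ± 0.677 FPKM, and its libraries overlapped those of SPRY4.

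Within a line the genes did not vary to the same degree. In MHCC97L-Src replicate 2, DUSP6 was 1.19 below the line's mean on the log2 scale, SPRED1 0.54 below, SPRY2 0.42 below and SPRY4 0.38 below, and in replicate 3 the same genes were the highest, DUSP6 by 0.96. Replicate 2 was the lowest of the line for 6 of the 9 genes, beside 44.3% of all genes, and it was also the library with the highest rho with GC content (0.703). After correction DUSP6 was still 0.97 below the mean there and SPRY4 0.48 below, while SPRY2 was within 0.08. In MHCC97L replicate 2 held the highest value for 8 of the 9 genes, beside 31.7% of all genes, and after correction again for 8, beside 34.9%. ETV4 and DUSP4 lay within 0.09 of the mean in each MHCC97L-Src library before correction, and after it ETV4 reached 0.16 and DUSP4 0.23.

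**Figure D4:**
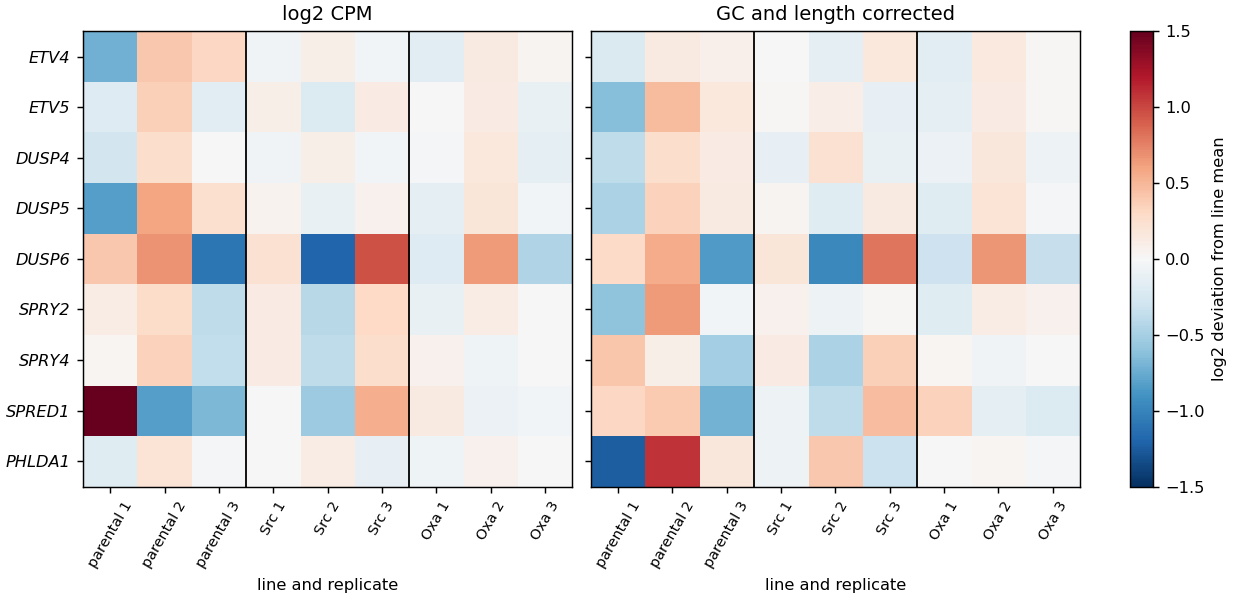
Log2 deviation of each ERK output gene from the mean of its line in each library, before (left) and after (right) correction for GC content and gene length, where parental stands for MHCC97L. DUSP6 has the strongest colours within the resistant lines, from -1.19 to 0.96 in MHCC97L-Src, and the dark field of SPRED1 in MHCC97L replicate 1 fades after correction.

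Of 64 further ERK pathway genes in 4 lists, 61 could be tested. In MHCC97L-Src 3 rose and 1 fell, where 2.13% of all genes passed, and in MHCC97L-Oxa 2 rose and 0 fell, where 0.953% of all genes passed. The median log2 fold changes of the 61 genes were -0.01 and -0.13, beside -0.16 and -0.19 over all genes. The libraries of MHCC97L-Src were wholly above those of MHCC97L for 16 of the 61 genes and wholly below for 6 (18.3% and 12.2% of all genes), and those of MHCC97L-Oxa for 16 and 3 (19.1% and 10.5% of all genes). These lists, too, were drawn up with results of these libraries known. The counts hung on single libraries: in MHCC97L-Src 8 genes passed when MHCC97L replicate 1 was left out and 24 when replicate 2 was, and 0 passed when MHCC97L replicate 3 or any MHCC97L-Src library was left out (15 to 21 at an unadjusted p under 0.05 in edgeR), and in MHCC97L-Oxa 18, 17 and 0 (9 to 18 at an unadjusted p under 0.05). After correction for GC content and length 10 were higher and 5 lower in MHCC97L-Src, and 8 higher and 4 lower in MHCC97L-Oxa, where 11.3% and 13.4% of all genes passed. DUSP1 and SPRED2, picked after their values were seen, were past the threshold only with such a change of setting. DUSP1, an immediate early phosphatase of p38, JNK and ERK, had 535, 705 and 745 CPM in MHCC97L, 1422, 1429 and 1335 CPM in MHCC97L-Src, and 1358, 1411 and 1246 CPM in MHCC97L-Oxa, above every MHCC97L library. SPRED2, the sister of SPRED1, had 32.9, 35.9 and 28.8 CPM, 70.6, 44.4 and 76.6 CPM, and 61.3, 65.7 and 62.1 CPM in the same order, again without overlap.

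Close relatives of the 10 genes in the DUSP, Sprouty, SPRED and PHLDA families included genes past the threshold in both directions. Of the 13 tested, 6 had libraries wholly above and 1 wholly below MHCC97L in each resistant line, and their median log2 fold changes were 0.37 in MHCC97L-Src and 0.43 in MHCC97L-Oxa. SPRY1, a further Sprouty inhibitor, rose in MHCC97L-Src, from 1.36, 1.30 and 1.06 CPM in MHCC97L to 7.39, 4.18 and 7.62 CPM, a log2 fold change of 2.42 ± 0.449 (SE; adjusted p = 0.0344, edgeR's quasi-likelihood test with Benjamini-Hochberg adjustment). In MHCC97L-Oxa SPRY1 had 5.44, 5.02 and 4.39 CPM, again above every MHCC97L library, and a log2 fold change of 2.01 ± 0.380 that did not pass in the edgeR test (adjusted p = 0.0580). DUSP2, an ERK phosphatase best known from immune cells, went the other way: it fell in MHCC97L-Src from 27.9, 40.5 and 38.6 CPM to 6.23, 7.66 and 7.28 CPM, a log2 fold change of -2.27 ± 0.362 (adjusted p = 0.0208, edgeR). In MHCC97L-Oxa DUSP2 stood between the other lines at 13.8, 15.4 and 14.5 CPM, and it was 0.99 lower on the log2 scale in MHCC97L-Src than in MHCC97L-Oxa (adjusted p = 0.0164, edgeR). DUSP2 and DUSP4 thus had opposite orders across the 3 lines, without overlap. The calls of SPRY1 and DUSP2 in MHCC97L-Src against MHCC97L were lost without MHCC97L replicate 3 or any single MHCC97L-Src library. Of the relatives 1 rose and 1 fell in MHCC97L-Src and 0 passed in MHCC97L-Oxa, and in each line 5 had an unadjusted p under 0.05 in edgeR and DESeq2 called 5. Over all genes tested DESeq2 called 2114 of 12037 in MHCC97L-Src and 893 of 12064 in MHCC97L-Oxa. After correction for GC content and length 4 relatives were past and higher and 2 lower in MHCC97L-Src, beside 11.3% of all genes. In MHCC97L-Oxa these were 4 and 3, beside 13.4%. PHLDA2, a relative of PHLDA1 known as an imprinted growth regulator, differed between the resistant lines, with 152, 205 and 149 CPM in MHCC97L-Src and 79.7, 78.6 and 81.1 CPM in MHCC97L-Oxa, a log2 difference of 1.14 ± 0.165 (adjusted p = 0.00395, edgeR). The difference in PHLDA2 passed without any one of the 6 libraries. It did not pass with all 9 libraries in 1 fit (edgeR adjusted p = 0.126, the highest of its alternatives, the lowest being 2.65e-07). That in DUSP2 did not pass in that fit either, nor without any single MHCC97L-Oxa library or without MHCC97L-Src replicate 1.

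Among 17 other ERK-responsive genes tested, FOS and IER3 rose in both resistant lines, as the only genes of the list past the threshold with 6 libraries per comparison. In MHCC97L-Src the libraries of 7 of the 17 lay wholly above MHCC97L and of 3 wholly below (18.3% and 12.2% of all genes). In MHCC97L-Oxa these were 8 and 0 (19.1% and 10.5% of all genes). At an unadjusted p under 0.05 there were 6 in each line, and DESeq2 called 5 in each. Over all genes tested DESeq2 called 2114 of 12037 in MHCC97L-Src and 893 of 12064 in MHCC97L-Oxa. After correction for GC content and length 5 were past and higher in MHCC97L-Src (FOS, MYC, IER3, PLAUR and MAFF) and 2 past and lower (EPHA2 and SPHK1). In MHCC97L-Oxa 4 were past and higher (FOS, IER3, PLAUR and MAFF). Of all genes 11.3% passed after correction in MHCC97L-Src and 13.4% in MHCC97L-Oxa. FOS, the classical immediate early gene and a partner in AP-1, went from 46.3, 51.2 and 52.1 CPM in MHCC97L to 125, 104 and 113 CPM in MHCC97L-Src and 141, 126 and 113 CPM in MHCC97L-Oxa, with log2 fold changes of 1.26 ± 0.229 (adjusted p = 0.0325, edgeR) and 1.36 ± 0.209 (adjusted p = 0.0323). IER3, an early response gene that modulates ERK signalling and cell survival, went from 88.8, 122 and 134 CPM to 325, 352 and 299 CPM in MHCC97L-Src and 306.5, 320.1 and 305.5 CPM in MHCC97L-Oxa, with log2 fold changes of 1.57 ± 0.265 (adjusted p = 0.0241, edgeR) and 1.44 ± 0.232 (adjusted p = 0.0387). No resistant library of either gene overlapped with MHCC97L. Neither gene passed without MHCC97L replicate 3 or without any single library of the resistant line compared. EMP1, which encodes an epithelial membrane protein, had the largest absolute log2 fold change of the list in MHCC97L-Src, -2.14 ± 0.550 (adjusted p = 0.0853, edgeR). Its libraries there lay wholly below MHCC97L, and in MHCC97L-Oxa they overlapped (-0.52). EGR1, an immediate early zinc finger factor, had 0.12 in MHCC97L-Src and 0.55 in MHCC97L-Oxa, neither past the threshold. Between the resistant lines EMP1 and EGR1 had the largest differences of this list, -1.60 and -0.44 on the log2 scale. Neither passed (adjusted p = 0.0526 and 0.0891, edgeR). In that comparison 0 of the 17 passed, 4 had an unadjusted p under 0.05 in edgeR and DESeq2 called 0. After correction for GC content and length 4 passed, all lower in MHCC97L-Src (EGR1, EPHA2, IER2 and EMP1), beside 9.95% of all genes.

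Of 21 genes of the cascade itself, from RAS regulators to ERK and the RSK kinases, 0 passed in either resistant line by edgeR. Of all genes 2.13% passed in MHCC97L-Src and 0.953% in MHCC97L-Oxa. At an unadjusted p under 0.05 in edgeR there were 8 and 5 of the 21, a count not made over all genes. DESeq2 called 6 and 1 of the 21, beside 2114 of 12037 and 893 of 12064 over all genes tested. The median log2 fold change of the list was -1.0 in MHCC97L-Src and -1.06 in MHCC97L-Oxa, beside -0.16 and -0.19 over all genes tested. The medians of the list moved with 1 library. Without MHCC97L replicate 1 they were -0.30 and -0.28, beside -0.04 and 0.00 over all genes. After correction for GC content and length they were -0.19 and -0.18, beside -0.05 and -0.07. NRAS, a RAS GTPase, had 126, 14.0 and 27.5 CPM in MHCC97L, 11.1, 5.54 and 12.3 CPM in MHCC97L-Src, and 15.9, 14.4 and 15.3 CPM in MHCC97L-Oxa. PTPN11, the phosphatase SHP2 that relays receptor signals to RAS, had 302, 24.5 and 103 CPM in MHCC97L, 27.7, 22.2 and 23.5 CPM in MHCC97L-Src, and 28.1, 31.4 and 34.1 CPM in MHCC97L-Oxa. In both genes MHCC97L replicate 1 was far above all other libraries. Without it the log2 fold changes in MHCC97L-Src and MHCC97L-Oxa were -1.05 and -0.39 for NRAS. Those of PTPN11 were -1.295 and -0.96, and none of these values passed. Every MHCC97L-Src library of NRAS lay below every MHCC97L library. Among the 10 transcription factors upstream, 0 passed in either resistant line by edgeR (2 and 1 with an unadjusted p under 0.05, and 1 and 0 by DESeq2), and ETS2, an ETS factor that ERK phosphorylates, was higher in MHCC97L-Src (452, 396 and 509.9 CPM) than in MHCC97L-Oxa (299, 282 and 265 CPM) by 0.73 ± 0.105 on the log2 scale (adjusted p = 0.00395, edgeR). That call held without any one of the 6 libraries. It was lost with all 9 libraries in 1 fit (edgeR adjusted p = 0.108, the highest of its alternatives, the lowest being 1.38e-05). The factors with the lowest values against MHCC97L were ETS1 (-1.23 in MHCC97L-Src and -1.16 in MHCC97L-Oxa), ELK4 (-1.12 in MHCC97L-Src) and ETV3 (-0.82 in MHCC97L-Oxa), and in these too MHCC97L replicate 1 was the highest library, with 72.8, 43.5 and 37.1 CPM against at most 24.1, 15.5 and 14.4 CPM elsewhere. Between the resistant lines NRAS (-0.62) and RASA1 (-0.61), a GTPase-activating protein for RAS, had the largest differences of the cascade, and 0 of 21 passed in edgeR, with 4 at an unadjusted p under 0.05 and 0 by DESeq2.

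**Figure D5:**
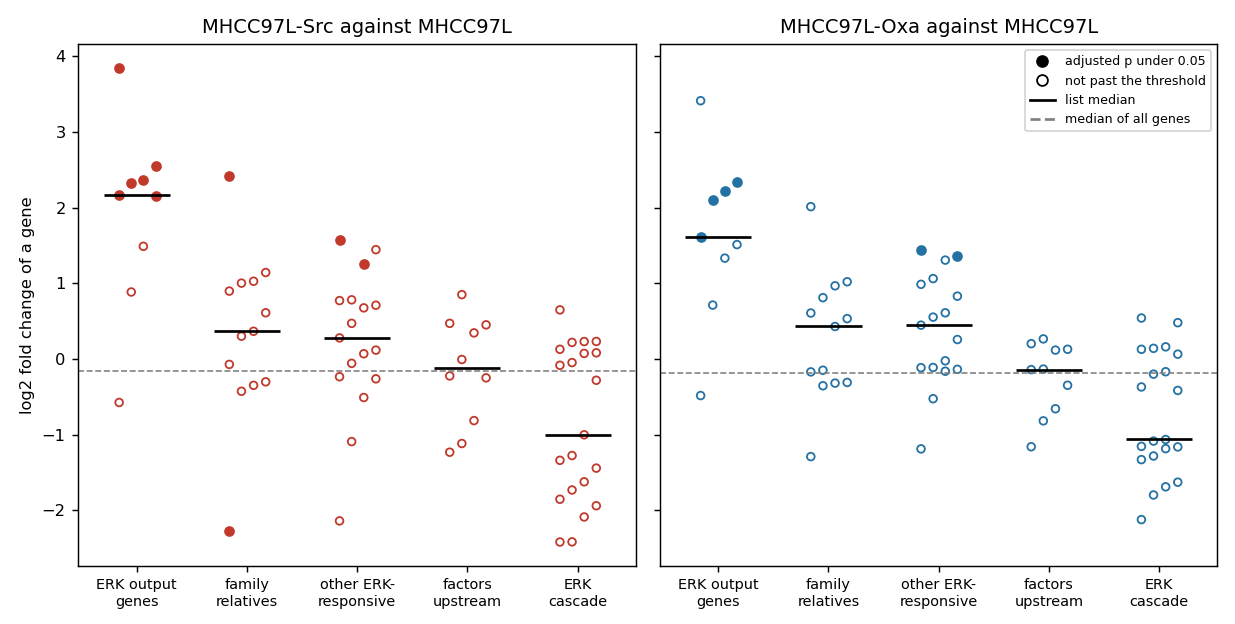
Log2 fold change against MHCC97L of each gene tested in the 9 ERK output genes and in 4 lists of other ERK pathway genes, in MHCC97L-Src (left) and MHCC97L-Oxa (right), with filled symbols for an adjusted p under 0.05, a bar at the list median and a dashed line at the median of all genes. The output genes have medians of 2.17 and 1.61, the cascade genes of -1.0 and -1.06, and the other lists lie between -0.14 and 0.45.

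The genes whose profile over the 9 libraries lay nearest to those of ETV4, ETV5 and DUSP6 were found among 12231 genes. The measure was the root mean square difference of log2 CPM centred on each gene's mean, without correction for GC content. For ETV4 these were SMOC1 (0.142), which encodes a secreted matricellular protein, TGM2 (0.182), a transglutaminase, and KNDC1 (0.193). SMOC1 had 116.5, 169.5 and 154 CPM in MHCC97L, 676, 677 and 718 CPM in MHCC97L-Src, and 552.5, 619 and 599 CPM in MHCC97L-Oxa, so that MHCC97L replicate 1 was the lowest library, as for ETV4. The GC content was 60.9% in ETV4, 54.8% in SMOC1, 55.1% in TGM2 and 63.5% in KNDC1. The part of GC content in this nearness was not tested. For ETV5 they were CHST6 (0.147), a sulfotransferase, PCDH1 (0.149), a protocadherin, and SALL2 (0.205), a zinc finger factor. SALL2 had 0, 2 and 1 counts in MHCC97L, under the floor, so its nearness depends on the prior count of 2 used for log2 CPM. For DUSP6 the nearest genes were farther away, namely HPCAL4 (0.489), NR4A2 (0.642), an early response nuclear receptor, and CHGB (0.646), a granin of secretory granules. CHGB had 4, 4 and 1 counts in MHCC97L, near or under the floor, so its nearness, too, depends on the prior count. HPCAL4 had 1.02, 0.563 and 0.223 CPM in MHCC97L, 3.87, 2.12 and 7.17 CPM in MHCC97L-Src, and 3.63, 3.96 and 2.70 CPM in MHCC97L-Oxa, with the same lowest and highest library as DUSP6 in MHCC97L-Src.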

How the data were processed

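Sequencing covered 9 RNA libraries, 3 for each of MHCC97L, MHCC97L-Src and MHCC97L-Oxa. The paper reports 3 independent experiments for MHCC97L and MHCC97L-Src. The labels do not state separate cultures, and p-values may measure technical spread if the libraries of a line share a culture. Whether drug was in the medium at RNA extraction is not given in the sources used here. Per the submitters' processing notes, the tools included Trimmomatic 0.36 and HISAT2 2.2.1.0 with the build GRCh38.p12, and the counting program is not given in the sources used here. The authors deposited raw read counts per gene without normalization, and FPKM values scaled by the authors to transcript length and library size. Of 20030 genes, GC content and length were matched by accession for 13518 and by symbol for 5825, and 687 had none.

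The 10 genes and all lists were chosen with earlier results of these data known. Each pair of lines was compared on the counts of its 6 libraries by edgeR's quasi-likelihood test (filterByExpr with a minimum count of 10, TMM normalization, Benjamini-Hochberg adjustment, threshold 0.05). Log2 CPM used a prior count of 2. Genes with an unadjusted p under 0.05 were counted among the ERK output genes and the lists, not over all genes. Besides the 10 genes, the text names every listed gene past the threshold (where fewer than 2 passed, the 2 with the largest absolute log2 fold change) and the 3 genes nearest to ETV4, ETV5 and DUSP6, and DUSP1 and SPRED2 were added after their values were seen. A floor of 3 counts was used, which covers counting error only because reads without molecular identifiers are not independent. Alternatives were the DESeq2 Wald test, DESeq2 size factors, no filter, a replicate block, offsets for GC content and length (splines with 5 degrees of freedom), all 9 libraries in 1 fit, each library left out, and, added after seeing the data, the offsets without MHCC97L replicate 1. The fits were tested on simulated data. The software was DESeq2 1.42.0, edgeR 4.0.16 and limma 3.58.1 under R 4.3.3, with NumPy 2.4.6, pandas 2.3.3 and matplotlib 3.10.9 under Python 3.11.15.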

Additional observations from a re-analysis of the deposited data

Results flagged for a closer look

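MHCC97L-Src and MHCC97L-Oxa, each set against the same MHCC97L libraries, had libraries that did not overlap for 2 of the ERK output genes. These genes were chosen with results of these libraries known, so this is a description, and with all 9 libraries in 1 fit 0 of the 9 genes were past the threshold of edgeR (2 at an unadjusted p under 0.05). The log2 difference of MHCC97L-Src over MHCC97L-Oxa was 0.75 for DUSP4, from fold changes of 2.36 and 1.61 against MHCC97L, and 0.81 for DUSP5, from 2.15 and 1.33.

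Of the other ERK pathway genes, 3 differed between the resistant lines in edgeR's quasi-likelihood test with Benjamini-Hochberg adjustment. DUSP2 was lower in MHCC97L-Src by a log2 difference of -0.99 (adjusted p = 0.0164), with -2.27 and -1.29 against MHCC97L. ETS2 was higher by 0.73 (adjusted p = 0.00395), with 0.85 and 0.12 against MHCC97L. PHLDA2 was higher by 1.14 (adjusted p = 0.00395), with 1.00 and -0.15 against MHCC97L. With all 9 libraries in 1 fit, 0 of these 3 passed in edgeR.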

How the results depend on the processing

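The sign of the log2 fold change against MHCC97L was the same under all 14 alternatives for 8 of the ERK output genes in both resistant lines, and it turned for SPRED1 (-0.92 to 1.13 in MHCC97L-Src and -0.82 to 0.93 in MHCC97L-Oxa). The counts of genes past the threshold were less stable, and the cause was not tested. Each line had 3 libraries, and DUSP6 had 2 to 11 reads in MHCC97L.

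In MHCC97L-Src the 6 ERK output genes past the threshold ranged from 0 to 7 when single libraries were left out. The 4 other ERK pathway genes became 17 with DESeq2, 8 without a filter, 15 with GC content and length correction, 15 with all 9 libraries in 1 fit, 17 with the correction and without MHCC97L replicate 1, and 0 to 24 with single libraries left out. All genes past the threshold (256, of which 172 higher) became 2114 (723 higher), 702 (268 higher), 1359 (726 higher), 1956 (854 higher) and 1461 (697 higher) under the same changes, and 22 to 3419 with single libraries left out.

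In MHCC97L-Oxa the 4 ERK output genes past the threshold became 7 with DESeq2, 7 with the correction and without MHCC97L replicate 1, and 0 to 7 with single libraries left out. The 2 other ERK pathway genes became 11 with DESeq2, 12 with the correction, 8 with 9 libraries, 22 with the correction and without MHCC97L replicate 1, and 0 to 18 with single libraries left out. All genes (115, of which 93 higher) became 893 (571 higher), 1616 (818 higher), 495 (387 higher) and 2475 (1096 higher) under these changes, and 2 to 2705 with single libraries left out. Between the resistant lines the 2 ERK output genes and the 3 others became 0 and 0 with 9 libraries (2 and 4 at an unadjusted p under 0.05), and 0 to 2 and 2 to 9 with single libraries left out. The others became 9 with the correction. All 556 genes became 839 with DESeq2, 1193 with the correction, 86 with 9 libraries, and 167 to 1617 with single libraries left out.

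Across genes, libraries with the same number had deviations from the mean of their line that correlated at 0.171, 0.217 and -0.650 between MHCC97L-Src and MHCC97L, and at -0.215, -0.134 and 0.444 between MHCC97L-Oxa and MHCC97L. These deviations were not corrected for GC content and came from 3 libraries per line, so they cannot settle whether the numbers pair the libraries. With a replicate block, all genes past the threshold in MHCC97L-Src became 988, the other ERK pathway genes 8 and the output genes stayed at 6, and in MHCC97L-Oxa the other ERK pathway genes became 1. With the correction and the block these were 9 in MHCC97L-Oxa, with 703 of all genes, and 1 output gene was left between the resistant lines.

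Signs turned for ELK4 in MHCC97L-Src (0.316 with the correction, 0.351 with the correction and the block, and 0.310 with the correction and without MHCC97L replicate 1) and for ETV3 in MHCC97L-Oxa (0.025 with the correction and without MHCC97L replicate 1, and -1.097 to 0.049 with single libraries left out).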
